A study of Mus musculus with 11 samples.

Results

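Interleukin-6 (IL-6) family signalling and its SOCS feedback inhibitors were examined in 3T3-L1 adipocytes as 10 genes: the cytokine gene Il6, the receptor genes Il6ra, Osmr, Lifr and Il6st, the transcription factor gene Stat3, and the suppressor genes Socs1, Socs2, Socs3 and Cish. Every probe set annotated with exactly 1 of these symbols was taken, which gave 28 of 34945 probe sets with a single symbol, for 10 of 18193 genes. 3T3-L1 is a clonal mouse line that is grown as preadipocytes and turned into fat cells in culture. All 11 arrays came from such differentiated cells, harvested at the same day after differentiation. The 3 control arrays were labelled as having no treatment. Chronic insulin (CI, 2 arrays) was 10 nM insulin given in 4 additions over a day and the next morning. TNF (3 arrays) was the inflammatory cytokine at 2 ng/ml for 4 days. DEX (3 arrays) was the synthetic glucocorticoid dexamethasone at 20 nM for 8 days in 0.01% ethanol; whether the control cells received this carrier is not clear from the labels. Sample titles number the arrays of a group as replicates but name no separate cultures, so the p-values speak of the variation among these arrays, possibly technical.

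IL-6, oncostatin M and leukaemia inhibitory factor signal through receptors that share the subunit gp130, the product of Il6st. IL-6 binds its own receptor chain (Il6ra), while the oncostatin M receptor (Osmr) and the leukaemia inhibitory factor receptor (Lifr) are signalling chains that pair with gp130. JAK kinases bound to these chains phosphorylate STAT3, which enters the nucleus and switches on its target genes. One of these is Socs3, whose product binds gp130 and JAKs and ends the signal. Socs1, Socs2 and Cish are suppressors of the same family; Socs2 and Cish are classical feedback genes of STAT5 downstream of growth hormone. In fat cells, SOCS proteins are also known to act on insulin receptor signalling.

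The deposited values are linear intensities, with a median of 124.5 to 129.5 per array, and the number of arrays limits their precision. Fold changes are differences of log2(intensity + 16), which understates the change of dim probe sets, and come from a limma fit over 33778 probe sets. A probe set was called at a Benjamini-Hochberg adjusted p under 0.05, and each gene is represented by its brightest probe set. Of the 28 probe sets 25 were tested. The other 3, Socs2 probe sets 1446085_at and 1441476_at and Osmr probe set 1459217_at, fell under the limit for dim probe sets, a mean intensity of 51.6, and lay at 18.9 to 55.7 on all arrays. Of 10 adipocyte markers 9 were analysed here. Fabp4, the fatty acid binding protein of fat cells, had group means of 21818 to 22995, near the highest intensities on the arrays (22501 to 25933). Slc2a4, another of the 9, had means of 2539 in control, 2329 in CI, 1734 in TNF and 1454 in DEX. Of the 9 adipocyte markers 0 were called higher and 4 lower in TNF, 1 higher and 4 lower in DEX and none in CI. Their summed intensity was 113960 to 115960 in control, 115230 to 117730 in CI, 98611 to 101040 in TNF and 106680 to 114350 in DEX. That of 10 preadipocyte and fibroblast markers was 55650 to 62294, 49542 to 51940, 62792 to 65992 and 39269 to 45155 in the same order. That of 10 macrophage and leukocyte markers was 4673 to 4849.9, 3909.9 to 4228.2, 6085.3 to 6551.5 and 3321.8 to 3819.4. Such sums of linear intensity are set mostly by the brightest genes, such as Fabp4 among the adipocyte markers and Col3a1 among the preadipocyte markers. The pan-leukocyte marker Ptprc had group means of 24.1 to 26.2 and the integrin gene Itgam of 47.2 to 52.4, and both were too dim to be tested. Others of the 10 were brighter. Lyz2 had means of 2325 in control, 1494 in CI, 2948 in TNF and 1513 in DEX. Those of Cd14 were 418, 254, 1201 and 795 in the same order, and those of Mpeg1 875, 1304, 990 and 263. In TNF 4 of 9 tested preadipocyte markers and 3 of 8 tested macrophage markers were called higher and none lower, at shares over all genes of 12.6% higher and 9.54% lower. In DEX 2 and 1 were called higher and 5 and 3 lower (12.4% and 12.6% over all genes), and in CI 0 and 1 higher and 5 and 2 lower (7.17% and 7.75%). The part of cell composition in the results below was not tested. In whole cultures fewer cells of a type and less RNA per cell cannot be told apart.

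In TNF 6 of the 10 genes rose and none fell: Il6, all 3 of the signalling chains Osmr, Lifr and Il6st, and Stat3 and Socs3. The median log2 fold change of the 10 was 0.66, against -0.01 over 15625 tested genes, of which 12.6% were called higher and 9.54% lower in TNF. In DEX Socs2 and Cish rose and Il6, Osmr, Lifr and Socs1 fell. Over all genes 12.4% were called higher and 12.6% lower in DEX, and the median of the 10 genes was -0.09 against 0.02 over all genes. In CI Il6 rose and Socs2 and Lifr fell, at background shares of 7.17% higher and 7.75% lower and a median of -0.11 against 0.01 over all genes, so its counts of 1 and 2 genes in 10 lay near the background. Without CI replicate 2, Il6 was the 1 gene of the 10 called in CI. The 3 comparisons share the control arrays.

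**Figure D1:**
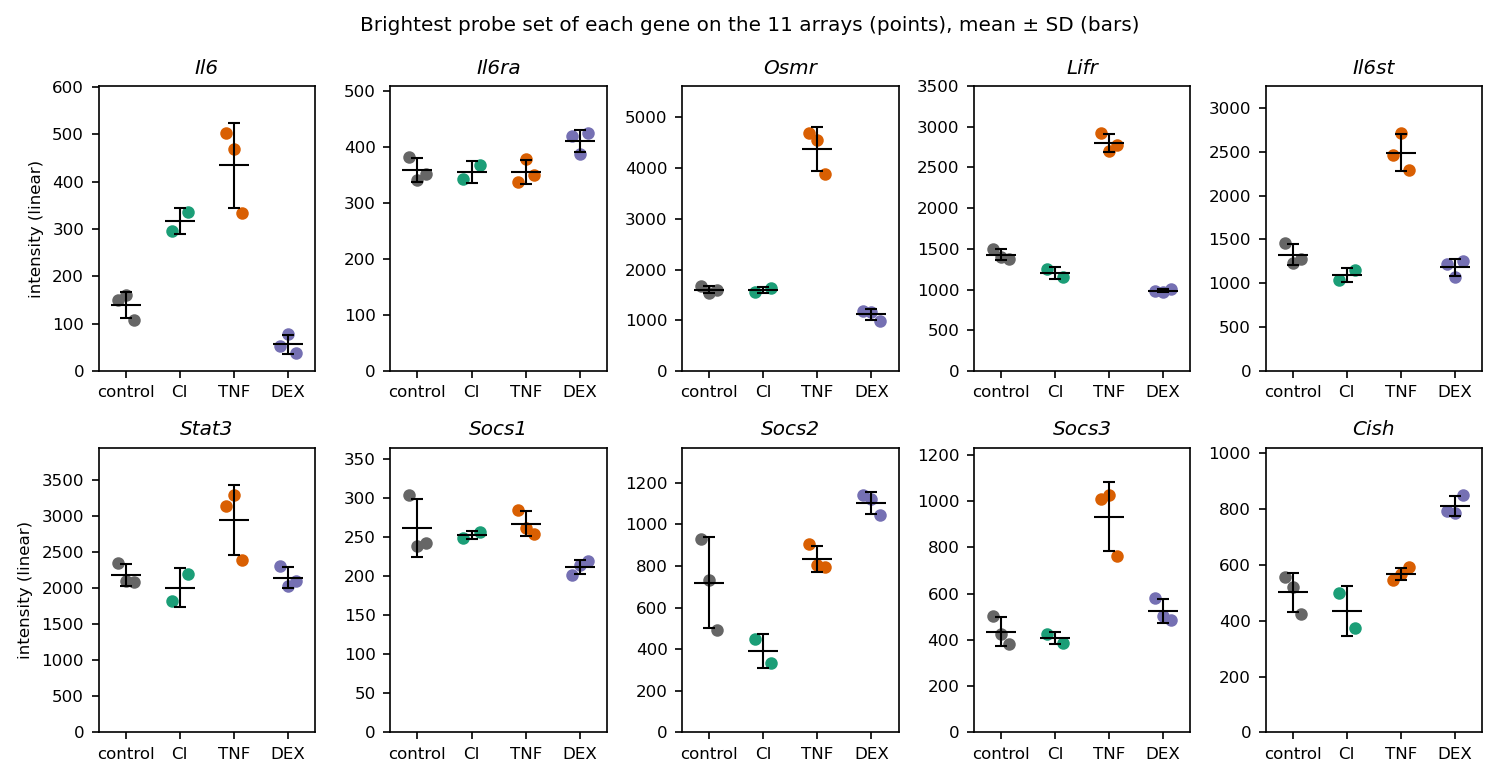
Linear intensity of the brightest probe set of each of the 10 genes on every array (points; vertical axes start at 0), with the mean and SD of each group (bars; n = 3 for control, TNF and DEX and n = 2 for CI). The TNF arrays lie above all control arrays for Il6, Osmr, Lifr, Il6st, Stat3 and Socs3, and the DEX arrays lie below all control arrays for Il6, Osmr, Lifr and Socs1.

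Il6, the cytokine of the set, was measured by 1 probe set (1450297_at) and its group means spanned more on the log2 scale (2.66) than those of the other 9 genes. Its intensity was 149.9, 160.2 and 107.6 in control, 296.4 and 335.7 in CI, 501.5, 467.9 and 332.7 in TNF, and 51.8, 77.2 and 38.4 in DEX. The CI and TNF arrays were all above the control arrays and the DEX arrays all below them, while CI and TNF overlapped. Against control, Il6 rose by 1.53 (SE 0.185, adjusted p = 6.02e-05) in TNF and by 1.11 (SE 0.207, adjusted p = 0.00303) in CI on the log2 scale. It fell by 1.13 (SE 0.185, adjusted p = 0.000484) in DEX, where its level was near the limit for dim probe sets. The difference between TNF and CI did not pass the test (0.42, 95% interval -0.03 to 0.87, adjusted p = 0.145), although it did without TNF replicate 3 (0.59, adjusted p = 0.0425). The order was thus TNF and CI, then control, then DEX.

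The RefSeq promoter of Il6, from 250 bases before to 50 after the start of transcription, is shown because NF-kappaB, the factor that TNF activates, is known to act on this gene. It lies at chr5:30012864-30013163 on the plus strand of GRCm38.p6, and the capitals mark a match to the long form of the NF-kappaB motif searched, GGG followed by any 2 bases and then TTTCC.
Il6: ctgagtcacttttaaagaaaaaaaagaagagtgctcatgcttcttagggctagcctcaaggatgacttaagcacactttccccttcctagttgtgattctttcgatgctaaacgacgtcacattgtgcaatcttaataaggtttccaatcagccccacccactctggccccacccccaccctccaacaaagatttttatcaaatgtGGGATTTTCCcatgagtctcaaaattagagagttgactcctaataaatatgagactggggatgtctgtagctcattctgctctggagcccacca
Positions are counted from 1 at the first transcribed base, with -1 the base before it, and the match spans -44 to -35. Of 32851 promoters of this length 1.63% held the motif on either strand, and of the 9 genes of the set with a promoter in the table Il6 was the 1 with it. None of the 9 held the short form searched, GGGANTTCC, which 1.68% of all promoters held. Socs2 had no entry in the table.

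Among the receptor genes, Osmr, the ligand-specific chain for oncostatin M, had the largest change in TNF on the brightest probe sets. Its probe set 1418674_at lay at 1677, 1541 and 1591 in control, at 1559 and 1641 in CI, at 4683, 4563 and 3890 in TNF and at 1191, 1168 and 991.9 in DEX. The TNF arrays stood far above all others, the DEX arrays were the lowest, and the CI arrays lay among the controls. Osmr rose by 1.44 (SE 0.0818, adjusted p = 5.4e-08) in TNF and fell by 0.52 (SE 0.0818, adjusted p = 0.000342) in DEX. In CI its log2 fold change was 0.00 (95% interval -0.20 to 0.19). The other tested probe set, 1418675_at, rose by 1.27 in TNF (adjusted p = 7.49e-05) but was not called in DEX (-0.40, adjusted p = 0.084). With the dim probe set averaged in, the changes were 0.91 in TNF and -0.34 in DEX, both still called.

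Lifr, the signalling chain for leukaemia inhibitory factor, was likewise highest in TNF and lowest in DEX on its brightest probe set. On probe set 1454984_at it was at 1503, 1401 and 1376 in control, 1252 and 1151 in CI, 2917, 2701 and 2772 in TNF, and 977.1, 967.9 and 1004 in DEX. No group overlapped another. Lifr rose by 0.96 (SE 0.0575, adjusted p = 8.76e-08) in TNF and fell by 0.53 (SE 0.0575, adjusted p = 1.14e-05) in DEX. It was lower by a smaller amount in CI (-0.25, SE 0.0642, adjusted p = 0.0224), a call that was lost without control replicate 1 (adjusted p = 0.081) or CI replicate 2 (0.201).

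The 3 Lifr probe sets did not move alike. Probe set 1425107_a_at rose by 0.94 in TNF (adjusted p = 2e-06) and fell by 0.48 in DEX (adjusted p = 0.000508), as the brightest did. Probe set 1450207_at, at 147.6 to 189.1 on all arrays, was called in none of the 6 comparisons, with 0.16 in TNF and 0.00 in DEX. In CI both dimmer probe sets lay above control (0.20, adjusted p = 0.181, and 0.17, adjusted p = 0.157), and the mean of all 3 was 0.04 in CI (adjusted p = 0.662) and -0.34 in DEX. The direction of Lifr in CI therefore depended on the probe set. In the CI arrays the 18 hybridization spike probe sets were all below control as well, with a median log2 difference of -0.23. That size is close to those of the brightest Lifr and Il6st probe sets. In TNF 18 and in DEX 17 of the spike probe sets were below control too, with smaller medians of -0.07 and -0.05. The part of the spikes in the result was not tested.

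Il6st, which encodes the shared subunit gp130, rose in TNF on all 4 of its probe sets. On the brightest, 1452843_at, it was at 1458, 1232 and 1276 in control, 1035 and 1153 in CI, 2465, 2707 and 2291 in TNF, and 1218, 1074 and 1256 in DEX. The TNF arrays stood above all others, and the control and DEX arrays overlapped. The log2 fold change in TNF was 0.90 (SE 0.0841, adjusted p = 5.63e-06), and those of the other probe sets ran from 0.83 to 1.01. In DEX the brightest was at -0.16 (95% interval -0.34 to 0.02, adjusted p = 0.208) and the others lay between -0.11 and 0.03. In CI 1 of the 4 probe sets, 1437303_at, was called (-0.33, adjusted p = 0.013). The brightest was not (-0.27, adjusted p = 0.0826), nor were 1460295_s_at (-0.24, adjusted p = 0.378) and 1421239_at (-0.15, adjusted p = 0.503).

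Il6ra, the chain that binds IL-6 itself, was not called against control on its brightest probe set, 1422270_a_at. Its intensity was 341 to 382 in control, 342 to 368 in CI, 338 to 379 in TNF and 387 to 424 in DEX, so that the DEX arrays were just above the others. The change in TNF was -0.01 (95% interval -0.15 to 0.13), and that in DEX was 0.19 (95% interval 0.05 to 0.33, adjusted p = 0.052). Probe set 1452416_at lay at 272.4, 222.2 and 238.2 in control and at 382.4, 390 and 352.3 in DEX, with no overlap, and rose by 0.59 in DEX (SE 0.0739, adjusted p = 4.44e-05). It was not called in TNF (0.03) or in CI (-0.21, adjusted p = 0.123). The mean of both probe sets was called in DEX (0.39, adjusted p = 0.000228), as was the brightest under 6 other settings, among them leaving out control replicate 1 (0.23, adjusted p = 0.032) or DEX replicate 2 (0.23, adjusted p = 0.033). Of the 4 receptor genes, Osmr and Lifr were thus called lower in DEX, while Il6st was not called and Il6ra was higher on 1 of 2 probe sets.

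**Figure D2:**
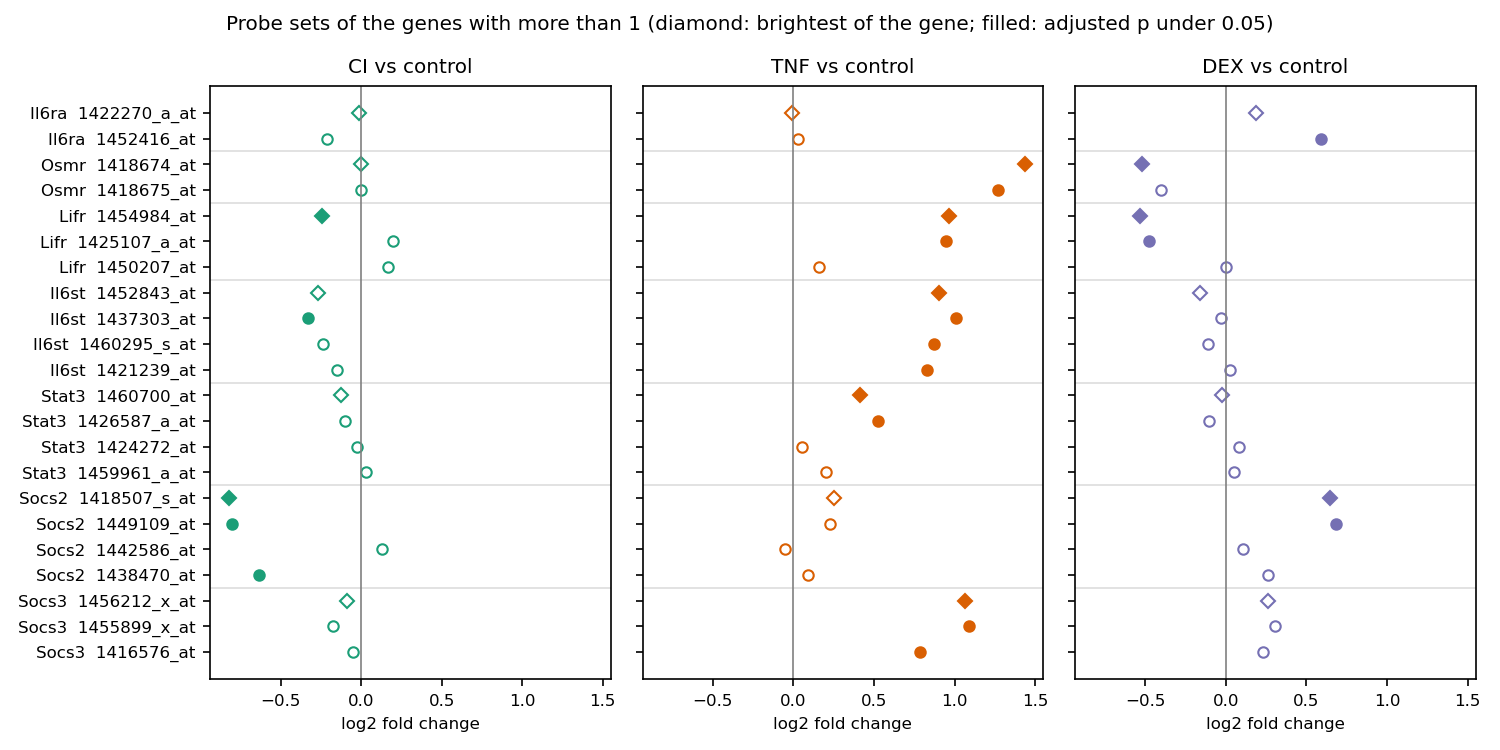
Log2 fold change against control of every tested probe set of the 7 genes that have more than 1, by gene and from brightest to dimmest (diamonds: the brightest probe set; filled symbols: adjusted p under 0.05). In TNF all 4 Il6st and all 3 Socs3 probe sets are filled and above 0.5, while Lifr probe set 1450207_at and Stat3 probe set 1424272_at lie near 0.

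Stat3, the transcription factor that the receptors activate, rose in TNF by less than the 3 signalling chains Osmr, Lifr and Il6st on their brightest probe sets. Probe set 1460700_at was at 2349, 2104 and 2088 in control, 1816 and 2195 in CI, 3142, 3290 and 2384 in TNF, and 2304, 2028 and 2099 in DEX. The TNF arrays were above all others, though TNF replicate 3 exceeded the highest control array by little. The log2 fold change was 0.42 (SE 0.109, adjusted p = 0.0164), and it was not called without control replicate 2 (adjusted p = 0.0644), control replicate 3 (0.0575), TNF replicate 1 (0.0698) or TNF replicate 2 (0.0795). Probe set 1426587_a_at rose by 0.52 (adjusted p = 0.000975). The dimmer 1424272_at (0.05) and 1459961_a_at (0.20, adjusted p = 0.0642) were not called. In CI and DEX none of the 4 probe sets was called, with changes between -0.12 and 0.08. These are RNA levels, and STAT3 protein and its phosphorylation were not measured.

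Socs3, the feedback inhibitor of gp130 signalling, rose in TNF on all 3 of its probe sets. The brightest, 1456212_x_at, lay at 501.2, 425.3 and 380.3 in control, 425.3 and 388 in CI, 1010, 1026 and 761.9 in TNF, and 581.9, 504.2 and 484.6 in DEX. The TNF arrays stood clear of the rest, and CI overlapped control. The log2 fold change was 1.07 (SE 0.116, adjusted p = 2.38e-05) in TNF, 0.26 in DEX (95% interval 0.01 to 0.51, adjusted p = 0.131) and -0.09 in CI (95% interval -0.37 to 0.19). The suffix x in the probe set name marks probes that may also bind other transcripts. Probe set 1416576_at, which has no such mark, rose by 0.79 in TNF (adjusted p = 0.00147) and was at 0.23 in DEX (adjusted p = 0.285).

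Cish, the suppressor named as a cytokine-inducible protein with an SH2 domain, rose in DEX. It was measured by 1 probe set (1448724_at), at 557.6, 521.9 and 423.8 in control, 499.1 and 372.7 in CI, 546.7, 567.9 and 590.7 in TNF, and 794.4, 784.7 and 850.1 in DEX. The DEX arrays were above all others, and the other 3 groups spanned 372.7 to 590.7. The log2 fold change was 0.68 (SE 0.104, adjusted p = 0.000252) in DEX, 0.18 (95% interval -0.04 to 0.41, adjusted p = 0.238) in TNF and -0.20 (95% interval -0.45 to 0.05, adjusted p = 0.326) in CI.

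Socs2, a suppressor that restrains growth hormone signalling, rose in DEX and fell in CI. On probe set 1418507_s_at it was at 932, 734.8 and 494.4 in control, 450.1 and 333 in CI, 908, 805.7 and 794 in TNF, and 1142, 1124 and 1043 in DEX. The control arrays were widely spread; the CI arrays were below all of them, the DEX arrays above all of them, and TNF overlapped control. The log2 fold change was -0.82 (SE 0.187, adjusted p = 0.0104) in CI, 0.65 (SE 0.167, adjusted p = 0.0121) in DEX and 0.25 (95% interval -0.11 to 0.61, adjusted p = 0.319) in TNF. Without CI replicate 2 the change in CI was not called (-0.61, adjusted p = 0.133), and without control replicate 3 the change in DEX was 0.41 (adjusted p = 0.0306).

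Probe set 1449109_at gave nearly the same Socs2 values, -0.80 in CI (adjusted p = 0.0042) and 0.68 in DEX (adjusted p = 0.00281). Probe set 1438470_at fell in CI (-0.64, adjusted p = 0.0166) and was not called in DEX (0.26, adjusted p = 0.217). Probe set 1442586_at was called in no comparison and lay at 208.6 to 269.5 on all arrays. The mean of all 6 Socs2 probe sets, the dim ones included, was -0.36 in CI and 0.31 in DEX, both called. Socs1, the suppressor best known for its action on interferon signalling, was at 238 to 304 in control, 248.5 to 255.8 in CI, 254 to 285 in TNF and 201 to 219 in DEX. It fell in DEX by 0.28 (SE 0.0806, adjusted p = 0.0228), a call that rested on control replicate 1 and DEX replicate 1 (-0.17, adjusted p = 0.0885, without the first and -0.25, adjusted p = 0.0804, without the second). In TNF its change was 0.03 (95% interval -0.14 to 0.21).

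The promoters of the feedback genes Cish and Socs3 are shown because STAT factors are known to bind both genes. Capitals mark matches to the STAT motif TTCNNNGAA, which reads the same on both strands and was held by 8.3% of all promoters. The Cish window is chr9:107296409-107296708 on the plus strand and the Socs3 window chr11:117969317-117969616 on the minus strand (RefSeq, GRCm38.p6).
Cish: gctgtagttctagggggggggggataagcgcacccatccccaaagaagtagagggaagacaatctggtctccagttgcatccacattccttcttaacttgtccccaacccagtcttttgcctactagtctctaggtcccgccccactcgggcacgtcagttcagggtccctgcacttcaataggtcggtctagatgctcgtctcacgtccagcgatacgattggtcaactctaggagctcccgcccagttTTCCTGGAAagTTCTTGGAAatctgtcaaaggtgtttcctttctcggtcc
Socs3: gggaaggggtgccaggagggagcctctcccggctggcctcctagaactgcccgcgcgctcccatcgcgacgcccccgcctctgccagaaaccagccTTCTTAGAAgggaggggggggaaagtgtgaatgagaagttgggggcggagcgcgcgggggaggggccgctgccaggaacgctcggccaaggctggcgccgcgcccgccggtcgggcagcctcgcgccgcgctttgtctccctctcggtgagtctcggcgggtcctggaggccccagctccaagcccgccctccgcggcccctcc
Cish held 2 matches, at 1 to 9 and 12 to 20, and the first also matched the stricter form TTCCNGGAA, found in 1.15% of promoters. Socs3 held 1 match, at -154 to -146. The other 7 genes with a promoter in the table, Stat3, Il6, Il6ra, Il6st, Osmr, Lifr and Socs1, had no STAT match in this window. The hexamer TGTTCT, a piece of the glucocorticoid response element, was in 19.0% of promoters. Among the 9 genes it was in that of Stat3 alone, at -147 to -142 on the strand opposite to the gene's. A match is a description of the sequence and says nothing of binding in these cells.

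**Figure D3:**
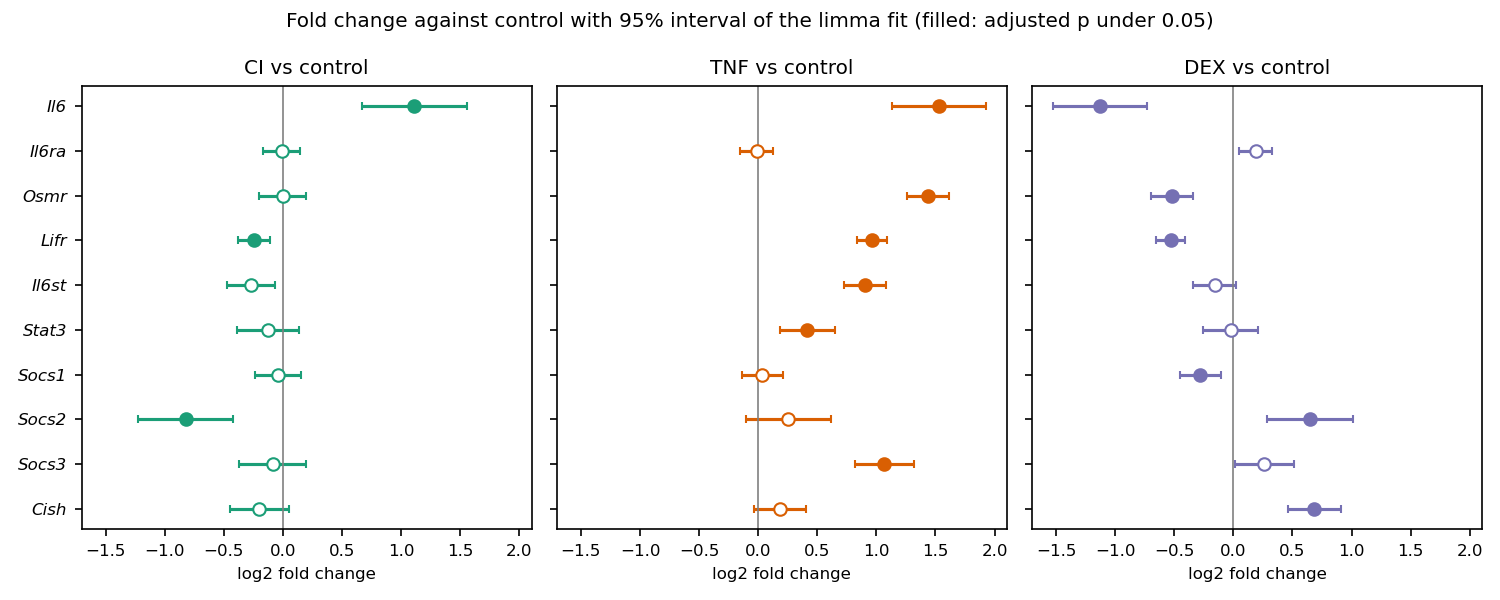
Log2 fold change against control of the brightest probe set of each gene, with the 95% interval of the limma fit (filled symbols: adjusted p under 0.05). In TNF the changes of Il6, Osmr, Lifr, Il6st and Socs3 run from 0.90 to 1.53, and in DEX those of Socs2 and Cish are above 0 and those of Il6, Osmr, Lifr and Socs1 below it.

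TNF and DEX differed in most of the set. Of the 10 genes 7 were higher in TNF and 2 lower, at background shares of 17% and 16.1%. The log2 difference, TNF minus DEX, was 2.66 for Il6 (SE 0.185, adjusted p = 9.71e-08), 1.96 for Osmr (SE 0.0818, adjusted p = 6.42e-10), 1.49 for Lifr, 1.06 for Il6st, 0.81 for Socs3, 0.44 for Stat3 and 0.31 for Socs1. Cish was lower in TNF (-0.50, adjusted p = 0.00246). So was Il6ra (-0.20, adjusted p = 0.0332; -0.56 on its other probe set), though on the brightest probe set the call was lost without TNF replicate 1, TNF replicate 3, DEX replicate 1 or DEX replicate 3 (adjusted p from 0.0837 to 0.124) and with arrays centred on the median (-0.17, adjusted p = 0.0673). Socs2 was not called on its brightest probe set (-0.39, 95% interval -0.75 to -0.03, adjusted p = 0.0926) but was called there without control replicate 1 (adjusted p = 0.038) or control replicate 3 (0.0144), and on probe set 1449109_at (-0.45, adjusted p = 0.0267).

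Set against CI, TNF was higher for 7 of the 10 genes and lower for 0, at background shares of 17.8% and 15.6%. The difference, TNF minus CI, was 1.44 for Osmr, 1.21 for Lifr, 1.17 for Il6st, 1.16 for Socs3, 1.08 for Socs2, 0.54 for Stat3 and 0.38 for Cish, with adjusted p-values from 1.73e-08 for Lifr to 0.0226 for Cish. The call of Cish was lost without CI replicate 2 (0.18, adjusted p = 0.339), TNF replicate 2 (adjusted p = 0.0524) or TNF replicate 3 (0.057) and with quantile normalization (0.0521), and that of Stat3 without CI replicate 1 (adjusted p = 0.0729). DEX was higher than CI for Socs2 (1.47, adjusted p = 3.5e-05) and Cish (0.88, adjusted p = 4.7e-05) and lower for Il6 (-2.24, adjusted p = 1.65e-06), Osmr (-0.52) and Lifr (-0.28, adjusted p = 0.00375), at background shares of 16% higher and 16.1% lower. The call of Lifr was lost without CI replicate 1 (adjusted p = 0.0651). Socs1, Socs3 and Il6ra lay close to the threshold there (adjusted p = 0.0653, 0.0608 and 0.0539) and all passed without control replicate 1, which gave 8 called genes in place of 5.

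The rest of the pathway was described with 67 other genes, of which 61 were measured and 59 tested. In TNF 27 were called higher and 1 lower, with a median of 0.17. In DEX the counts were 20 and 8 (median 0.07), and in CI 8 and 5 (median -0.01). Over all genes tested, the shares called higher and lower were 12.6% and 9.54% in TNF, 12.4% and 12.6% in DEX and 7.17% and 7.75% in CI, so that the counts called lower in DEX and CI lay near the background. The CI counts moved with single arrays, to 4 and 4 without control replicate 1, 3 and 5 without control replicate 2, 3 and 4 without CI replicate 1 and 2 and 3 without CI replicate 2. The other 6 listed genes were not analysed here.

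Of the 5 ligand genes tested, none was called in TNF. Lif, which encodes the ligand of Lifr, lay at 155.5 to 193.2 on all arrays, and Osm, which encodes the ligand of Osmr, at 101.6 to 116.6. Clcf1, another gp130 ligand gene, was the 1 ligand gene called in CI (0.31, adjusted p = 0.0353) and in DEX (0.29, adjusted p = 0.0155). Of 10 other cytokine receptor genes 5 rose in TNF and 0 fell, and in DEX 2 rose and 2 fell. In DEX the interferon gamma receptor gene Ifngr1 rose by 0.98 (SE 0.091, adjusted p = 2.53e-06), from 1013 ± 122 to 2003 ± 111 (SD, n = 3). Of the 4 JAK kinase genes 3 rose in TNF. Jak2, the JAK of the growth hormone receptor and one of those used by gp130, was named after its values were seen. It lay at 835.2, 842.4 and 817.4 in control, at 1689, 1685 and 1434 in TNF and at 814.6 to 872.9 on the CI and DEX arrays. In TNF Jak2 rose by 0.93 (SE 0.0653, adjusted p = 4.04e-07). Jak1, which gp130 also uses, had a mean of 3332 in control and 3419 in TNF. Tyk2 was called in all 3 treatments, by 0.18 in CI, 0.24 in TNF and 0.22 in DEX. Of 12 inhibitor genes, Socs4, Socs5, Socs6 and Socs7 among them, 2 rose in TNF, 1 in DEX and 0 in CI, and 0 fell. Over all genes 12.6%, 12.4% and 7.17% were called higher in TNF, DEX and CI, so these inhibitor counts lay near the background. Of 5 other STAT genes 2 rose in TNF, 1 rose and 1 fell in DEX, and 1 fell in CI, at shares lower of 9.54%, 12.6% and 7.75%.

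Among 18 tested genes known as STAT3 targets 13 rose and 0 fell in TNF (median 0.85), 13 rose and 3 fell in DEX (median 0.53), and 5 rose and 3 fell in CI (median 0.10). The background shares were 12.6% higher and 9.54% lower in TNF, 12.4% and 12.6% in DEX, and 7.17% and 7.75% in CI. The smallest adjusted p-values in TNF were those of the acute-phase genes Saa3 (5.46), Hp (1.54) and Lcn2 (4.63) and of the protease inhibitor gene Timp1 (1.78). The level of Hp, at 20854 ± 924 (SD, n = 3) in TNF, lay below the highest intensity on the TNF arrays, which was 23628 on the lowest of them, and whether the upper limit of the scale bears on its change was not tested. In DEX Hp (1.44) and Cebpd (2.37), a C/EBP transcription factor gene, rose. In CI Bcl6 (0.42) and Lcn2 (1.69) rose, and Ccnd1, which encodes cyclin D1, (-0.59) and Lrg1 (-0.53) fell. Many of these genes also answer to NF-kappaB, C/EBP factors or the glucocorticoid receptor. Of 3 other growth hormone and STAT5 target genes 1 rose and 2 fell in DEX: Bcl2l1, a survival gene, rose by 0.34 (adjusted p = 0.000669), and Igfals, which encodes a carrier protein of insulin-like growth factors, fell by 1.16 (adjusted p = 5.97e-05). Igf1 fell in DEX by 1.25 (SE 0.0821, adjusted p = 7.66e-08), from 3142 ± 339 to 1309 ± 34.1 (SD, n = 3), and in TNF by 0.46 (adjusted p = 0.00129), while Socs2 and Cish rose in the same DEX arrays. Both sheddase genes of the IL-6 receptor rose in TNF, Adam17 by 0.65 (adjusted p = 5.38e-06) and Adam10 by 0.49; of these, Adam17 was also called in CI (0.22, adjusted p = 0.0432).

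**Figure D4:**
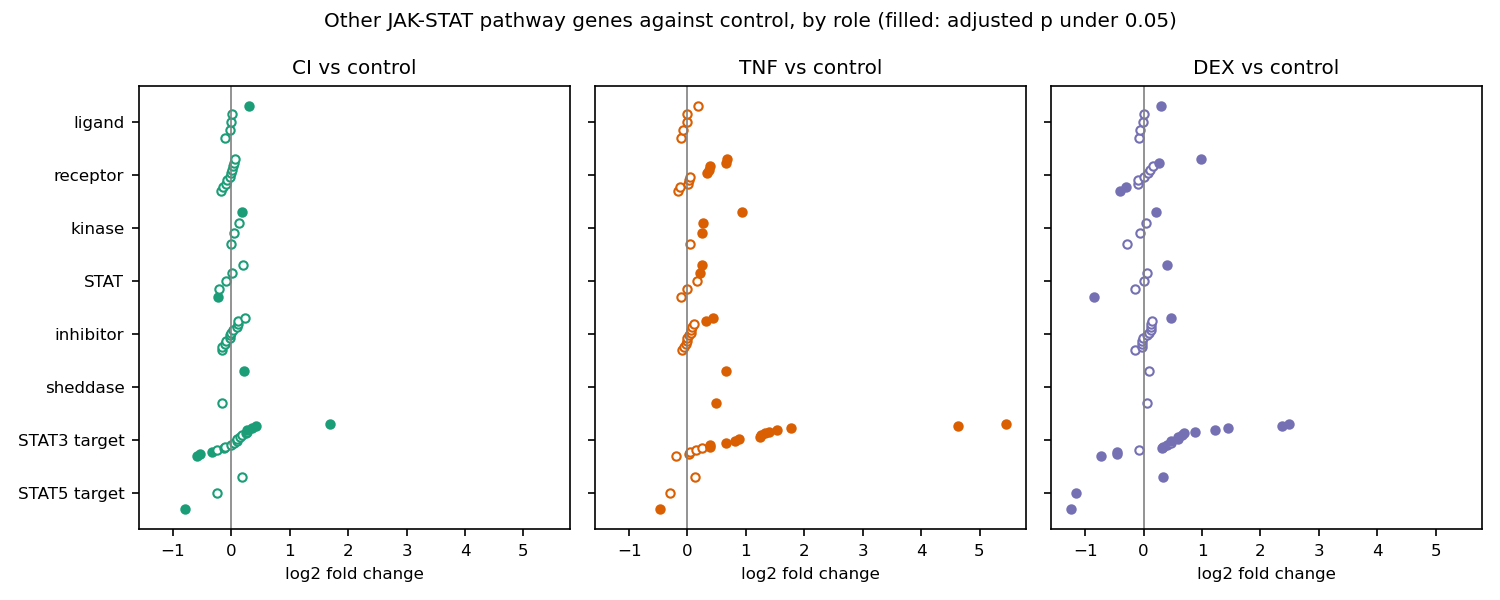
Log2 fold change against control of the 59 other JAK-STAT pathway genes tested, by role (filled symbols: adjusted p under 0.05). Of the 5 ligand genes Clcf1 alone is filled, in CI and DEX, and the 13 called STAT3 target genes in TNF are all above 0.

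For the 6 genes whose group means spanned more than 1 on the log2 scale, the most similar patterns over the 11 arrays were found by the root mean square difference of centred log2 values. The nearest to Osmr were Rspo2 (0.12), Casp4 (0.13) and Dclk1 (0.14), those to Lifr were Itgav (0.12), S1pr3 (0.13) and Aebp1 (0.13), and those to Il6st were P2rx4 (0.089), B4galt5 (0.10) and Pros1 (0.10). Socs3 was nearest to Tlr4 (0.11), then Tnfaip2 (0.12) and Frmd4a (0.12). Il6 was nearest to Melk (0.39), Grb14 (0.39) and Ifit2 (0.42), and Socs2 to Gulp1 (0.15), C730049O14Rik (0.19) and Rnase4 (0.19). The difference is not scaled to a gene's span, which was largest for Il6 (2.66). Its size therefore cannot be compared directly between genes.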

How the data were processed

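Affymetrix arrays were hybridized with biotin-labelled cRNA, per the labels' protocols. Linear intensity for 45101 probe sets on 11 arrays was deposited by the authors in a single table. The sources used here do not give its background correction, summary or normalization. Quartiles on the log2 scale lay within 0.0736 of each other over the arrays, and no further normalization was applied. The 64 control probe sets were left out and values transformed as log2(intensity + 16). Probe sets with a mean under the 25th percentile were left out, which left 33778. Symbols came from the platform annotation: 34945 probe sets had 1 symbol, 932 several and 9160 none, and 34741 of the first were matched by gene identifier to RefSeq. The 6 comparisons came from 1 two-sided limma fit (version 3.58.1, R 4.3.3) of group means to all 11 arrays, moderated with eBayes (7 residual and 6.54 prior degrees of freedom), with Benjamini-Hochberg adjustment over all probe sets tested. The procedure was tested on simulated data with independent noise and planted changes larger than many of those reported here, so smaller changes were not tried. Replicate arrays had 9 to 30 identical values per pair, so none was a copy. Groups and replicate numbers came from the sample titles.

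All probe sets of the 10 genes are reported. Pathway genes are named by the 4 smallest adjusted p-values among those called against control, plus any receptor, kinase or STAT gene called in all 3 treatments, and neighbours by the 3 smallest differences. Jak1, Jak2, Adam17, Adam10, Lif, Osm and Clcf1 were added after their values were seen, as were Bcl2l1, Igfals and the TNF value of Igf1. The markers Slc2a4, Lyz2, Cd14 and Mpeg1 were also named after their values were seen. The members and lists were chosen with earlier results of these data known. Alternatives were 2 pseudocounts, 2 dim filters, 2 normalizations, 1 probe set or the mean of probe sets per gene, only the groups compared, an intensity trend, a replicate block and leaving out each array.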

Additional observations from a re-analysis of the deposited data

How the results depend on the processing

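Of 36 called differences of the 10 genes over the 6 comparisons, 28 were called in the same direction under all 22 alternatives to the brightest probe set's fit, and 8 were lost under at least 1. The number of the 10 genes called in CI against control was 1 to 3 when single arrays were left out. For DEX against CI it was 4 to 8 when single arrays were left out, and 8 in place of 5 with 1 probe set per gene or a gene's averaged probe sets. The number of other pathway genes called in CI was 5 to 13 when single arrays were left out. Lifr in CI changed sign with the mean of all probe sets (0.040) and on probe sets 1425107_a_at (0.20) and 1450207_at (0.17). On single probe sets the sign also turned for 1450207_at of Lifr in DEX against control (0.0017) and in TNF against CI (-0.0091), for 1442586_at of Socs2 in CI against control (0.13), TNF against CI (-0.18) and DEX against CI (-0.018), and for 1424272_at of Stat3 in TNF against DEX (-0.030); none of these passed, and the cause was not tested. The other counts stayed within 1.5 times. Whether the replicate numbers pair the arrays is not clear. The correlation of same-numbered deviations was over 0.1 in 5 of 15 pairs (-0.31 to 0.36). Deviations within a group depend on each other, so these correlations cannot exclude a pairing. With a replicate block the calls among the 10 genes numbered 3 in CI, 6 in TNF and 7 in DEX against control, 8 for TNF against CI, 6 for DEX against CI and 9 for TNF against DEX, where Il6ra was lost (adjusted p = 0.051) and Socs2 gained (0.0311). The number of arrays and, for Il6 in DEX and the 3 dim probe sets, the low signal limit these values.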
